A study of Capra hircus with 12 samples.

Results

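Skin of cashmere goats (Capra hircus) carries secondary hair follicles, the small follicles that make the cashmere underfibre, and RNA was sequenced from them in 6 months of a year. The comparison described here sets the 2 libraries of May, labelled anagen (growth), against the 2 of March, labelled telogen (rest), which makes 4 of the 12 libraries in the series. The members were taken from the sample titles alone. Each month has 1 library from a female and 1 from a male, all from goats of 1.5 years, with no treatment named. September, also labelled anagen, has 2 libraries built the same way and was used to ask which changes of May were still there later in growth. The labels give the tissue as secondary follicles from skin, and neither how they were isolated nor whether the same goats were sampled in different months is given. The p-values therefore measure the spread between these libraries, in which sex and animal cannot be told apart.

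In anagen, cells of the hair matrix divide around the dermal papilla and their daughters form the shaft, built of hair keratins and keratin-associated proteins, and the inner root sheath that moulds it. In telogen the lower follicle has regressed, and stem cells of the bulge and hair germ wait beside the papilla until signals such as Wnt ligands restart growth, while bone morphogenetic proteins hold them at rest. The cashmere follicle passes through this cycle yearly, under the control of day length.

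From March to May the largest rises were in genes of fast skeletal muscle, led by TNNC2 (troponin C). Of the whole list of 28 skeletal muscle genes 18 rose, and 12 were lower in September than in May. Single genes of other groups also rose, among them KRT25 and KRT27 of the inner root sheath, KRT40 of the hair shaft, S100A7A, the ribosomal protein gene RPL39 and RRP36, of ribosomal RNA processing. Most transcripts of the mitochondrial genome, the mucin-like gene MUCL1 and KRTAP3-1, a keratin-associated protein of the shaft, fell. No gene of the sheath, shaft keratin or mitochondrial genome lists was called with either May library left out. Of 28 genes of mitosis 0 rose and 8 fell, so no mitosis gene passed as higher under the label of growth. Over all genes, 2239 of 16095 tested were higher in May (13.9%) and 2163 were lower (13.4%), 4402 in either direction (27.4%), at an adjusted p under 0.05 in limma with Benjamini-Hochberg adjustment. Counts of called list members are to be read against these shares. Changes of at least 2-fold made up 777 of the rises and 383 of the falls. Folds are differences of log2(TPM + 1), where TPM is the heading of the deposited values, and adding 1 makes the change of a low gene look smaller than it was. The median change of all tested genes was -0.08. In all sentences of values that follow, the female is given first and the male second.

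**Figure D1:**
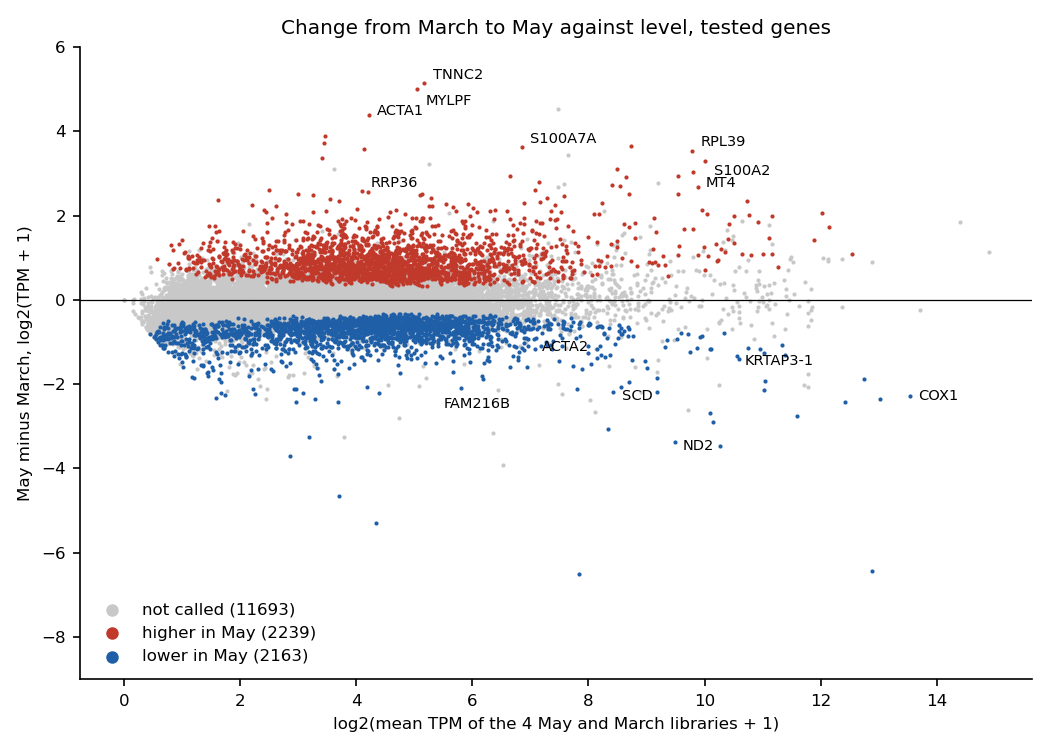
Each point is 1 of the 16095 tested genes, with the log2 of its mean TPM plus 1 in the 4 libraries on the x axis and the May minus March difference of log2(TPM + 1) on the y axis. Red points are the 2239 genes higher in May and blue points the 2163 genes lower in May, with TNNC2 highest at 5.14 and ND2 at -3.37. Points far below without a label include MUCL1 and genes with LOC names.

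The 2 March libraries stood apart from each other, which bears on every result below. Transcripts of the mitochondrial genome took 11.81% of the summed signal in the March female and 4.63% in the March male, against 1.529% and 1.555% in May. On the first principal component of all tested genes (52.11% of the variance) the March female scored 56.4 and the March male 22.97, and the May libraries -35.31 and -31.36. With the March female left out, 631 genes were higher and 804 lower in May. With the March male left out the counts were 3038 and 2918. Without either May library fewer calls were left than without either March library. The mean of a month with 1 library has a wider error, so a call can be lost with its change unmoved. The median of the mitochondrial genome list, -2.283 with all libraries, was -2.285 without the May female and -2.282 without the May male. Without the March female or male it was -1.463 or -3.1. In smooth muscle genes the May libraries moved the median as well (-0.5541 and -0.1979 against -0.3884). A call said below to rest on a library was lost without it. Of 48 gene lists 47 held a call; with the May female left out 32 of these held none, with the May male 30, with the March female 18 and with the March male 0. A month left with 1 library is taken in these fits to vary like the others. Its own pair then no longer enters the shared spread. The March libraries stood apart, so leaving out 1 of them can also narrow that spread. Calls kept without the March male are therefore no measure of stability by themselves. All 4402 changes kept their sign with any 1 of these 4 libraries left out, and 132 rises and 52 falls kept the call with any 1 of the 12 left out. In 29.8% of tested genes both May libraries were above both March libraries, and in 36.8% both were below.

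Markers of follicle epithelium were abundant in all 4 libraries. TCHH (trichohyalin, the granule protein of the inner root sheath) had 5998 and 5131 TPM in May and 1674 and 5112 in March, where the female was the low one. KRT14, a keratin of the basal layer and outer root sheath, had 6801 and 7039 in May and 2836 and 4334 in March. Other skin was present as well. KRT10, a keratin of the differentiating epidermis between follicles, had 900.2 and 1947 in May and 1226 and 838 in March, with the May male highest and the groups overlapping. COL1A1, the main collagen of dermal fibroblasts, had 396 and 473 in May and 146 and 409.5 in March. KRT71, KRT31 and KRT85, which also mark sheath and shaft, were not analysed here. In bulk RNA, fewer cells of a type and less RNA per cell cannot be told apart.

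September against March called 1570 genes higher (9.75%) and 1465 lower (9.1%), 18.9% in either direction. A May change is said to persist where the gene passed here in the same direction. The same 2 March libraries are the reference of both comparisons, so the March level enters both. Of the 2239 rises of May 1216 persisted (54.31%), which made up 77.45% of the September rises. Of the 2163 falls 998 persisted (46.14%), or 68.12% of the September falls. A further 1023 rises and 1165 falls did not pass in September, and 0 changes passed in the opposite direction. The difference between the 2 anagen months was tested itself: September against May called 5 genes higher (0.0311%) and 17 lower (0.106%), 0.137% in all, with 1572 at an unadjusted p under 0.05. By that test 16 rises and 1 fall, ACTA2, were reversed, meaning that September differed from May in the opposite direction and not from March. For the other changes that did not pass in September, a difference between May and September was not shown.

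Counts of persisting changes moved with single libraries too. Without the September female 7 rises and 2 falls persisted, and without the September male 11 and 9. Without the March female the counts were 125 and 431, and without the March male 2280 and 2091. Leaving out the May female gave 129 and 57 and the May male 204 and 100, while without the December female or male 578 and 577 falls persisted. Scaling each library to the same sum gave 741 persisting rises and 1599 falls, and moved the September calls against March to 883 higher and 3470 lower. Each May, March and February file holds 26 gene names turned into dates and each file of September, November and December 0, and the part of file preparation in the September comparison was not tested.

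The largest persisting rises, by the rule for named genes, were S100A7A, RPL39, S100A2, RPLP2, MT4, COPS9, RRP36 and RRP1. The largest persisting falls were MUCL1, ND2, ND1, ATP6, ND4, ND3, COX1 and CDR1. Among the reversed changes, 8 rises met the same conditions: TNNC2, MYLPF, ACTA1, TNNI2, MYL1, TNNT3, CKM and ENO3. The other 8 reversed rises, chosen after their values were seen, were MYL2, MYOZ1, CA3, ATP2A1, MB, TTN, PIGY and LOC102180883, all with means under 5 TPM over the 4 libraries.

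**Figure D2:**
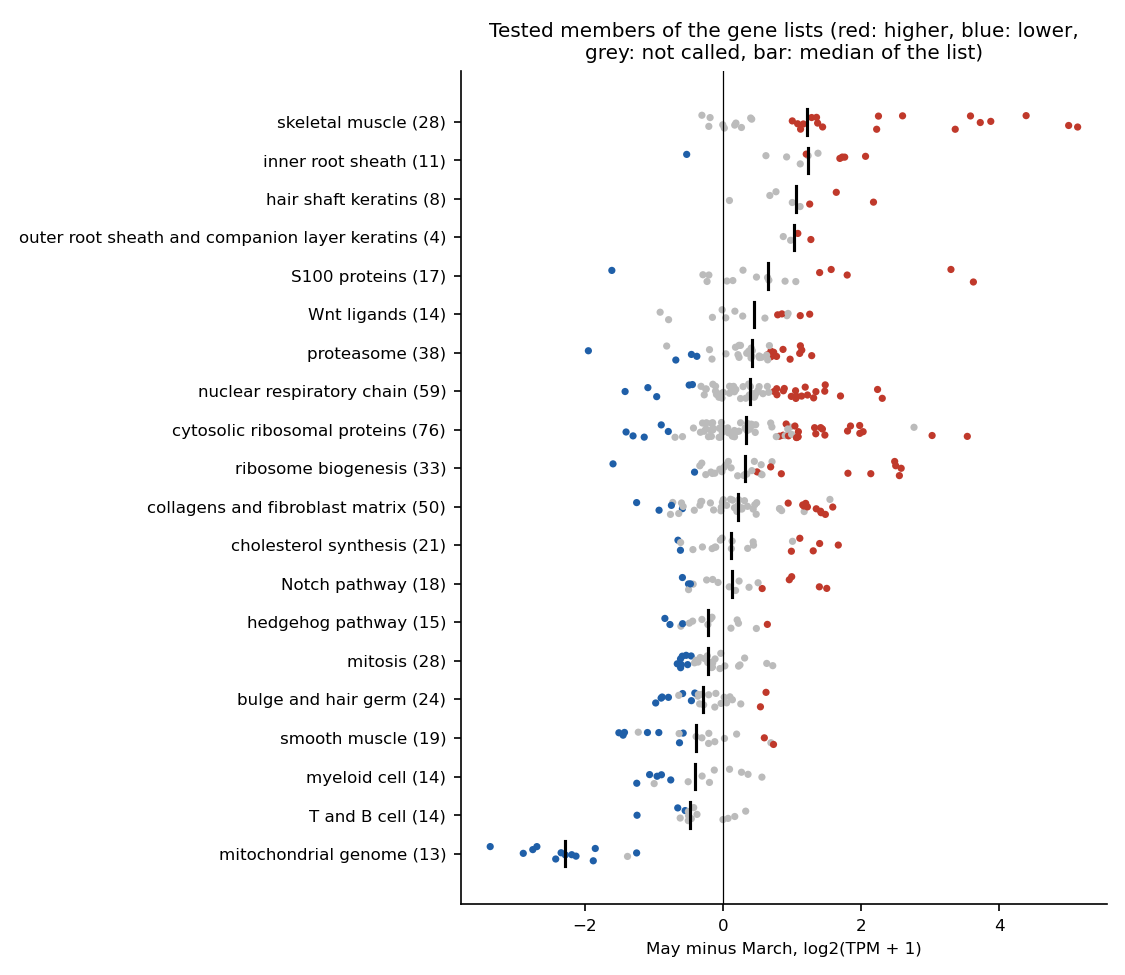
Each point is a tested member of a gene list, placed by its May minus March difference of log2(TPM + 1) on the x axis; rows are lists with the number tested in brackets. The median is 1.23 in skeletal muscle genes and -2.28 in mitochondrial genome genes.

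Skeletal muscle genes gave the largest rises of the whole comparison. TNNC2 (gene ID 100861317), troponin C of fast fibres, the calcium sensor of contraction, had 71.4 and 66.97 TPM in May, 0.9 and 1.09 in March and 0.64 and 0.85 in September. Both May libraries stood far above all others, and the rise was 5.14 (SE 0.26, adjusted p = 3.0e-05). MYLPF (gene ID 100861163), a regulatory light chain of fast myosin, had 63.3 and 63.3 in May, 0.61 and 1.48 in March and 0.87 and 0.77 in September, a rise of 5.01 (SE 0.26, adjusted p = 3.0e-05). ACTA1 (gene ID 102182476), the actin of skeletal muscle, had 36.1 and 32.8 in May, 0.58 and 0.8 in March and 1.14 and 1.46 in September and rose by 4.39 (SE 0.38, adjusted p = 0.000811). In all 3 genes, both May libraries lay above every March and September library. TNNT3 and TNNI2, the tropomyosin-binding and inhibitory troponins of fast fibres, had 28.2 and 34.5 and 18.9 and 20.4 in May against 0.89 and 2.8 and 0.15 and 0.71 in March. MYL1, a myosin light chain, had 20.6 and 17.8 in May and 0 and 1.32 in March. CKM, the creatine kinase that buffers ATP in muscle, had 19.5 and 17.3 in May and 0.94 and 0.82 in March, a rise of 3.37 (SE 0.21, adjusted p = 7.2e-05). ENO3, the muscle enolase, moved less, from 2.97 and 5.44 to 13.5 and 12.3 (log2 change 1.46, adjusted p = 0.00726).

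Of 28 tested skeletal muscle genes 18 were higher in May and 0 lower, against 13.9% and 13.4% of all genes, with a median change of 1.23 against -0.08 for all genes. In September 4 were higher than March and 1 lower, and 12 were lower than in May. DES and TPM2, which smooth muscle also expresses, are in this list too. The summed level of the list was 436 and 406 TPM in May, 137 and 124 in March and 247 and 243 in September. The September sum includes DES, which was higher in September than in May by 2.06 on the log2 scale. TNNC2 was lower, by -5.33, as were most called members. The 2 rises that persisted, chosen after their values were seen, were TCAP, which caps titin in the Z-disc (14.3 and 9.45 in May, 2.18 and 5.8 in March and 13 and 10.2 in September), and TNNT1, a troponin of slow fibres (13.7 and 16.04 in May, 4.86 and 7.49 in March and 20.8 and 12.4 in September). TTN (titin), the giant spring of the sarcomere, was low, with 2.33 and 2.2 in May and 0.43 and 0.85 in March, and rose by 1.00 (adjusted p = 0.0105); the marker myosins MYH1, MYH2 and MYH7 were not analysed here. The part of muscle tissue in the May rises was not tested. Of the 10 called genes above other than TTN, 2 lost the call with the March female left out, 0 with the March male, 3 with the May female and 2 with the May male left out, with adjusted p up to 0.116. Leaving out the March female or the March male gave log2 changes of 3.12 or 4.33 in MYL1. The list held 16 rises with the March female left out, 18 rises and 1 fall with the March male, and 9 and 10 rises with the May female and the May male left out.

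Smooth muscle genes that changed were mostly lower in May. The dermal sheath around the follicle contracts in regression through the same actin and myosin proteins as vessel walls and the muscle that raises the hair. ACTA2 (gene ID 102191486), the smooth muscle actin, had 103 and 79.7 TPM in May, 185 and 162 in March and 234 and 222 in September. May was below both other months with no overlap, and the change was -0.93 (SE 0.15, adjusted p = 0.00699). CNN1 (calponin) had 19.1 and 14.7 in May and 74.2 and 32.9 in March (-1.51, adjusted p = 0.0162), and MYLK, the kinase that switches smooth muscle myosin on, had 32.3 and 31.4 in May and 92.1 and 51.9 in March (-1.09, adjusted p = 0.0127). In both genes the March female was the highest of the 4 libraries. Other members rose: CNN2, the broadly expressed calponin, from 41.03 and 67.2 to 96.3 and 80.3, and SMTN (smoothelin), from 28.2 and 26.5 to 47.7 and 36.8, and both persisted in September. In all 7 of 19 fell and 2 rose, against 13.4% and 13.9% of all genes. The median was -0.39 (-0.20 without the March female, -0.60 without the March male and -0.20 without the May male). September had 7 higher than March and 0 lower. DES (desmin), the intermediate filament of muscle, did not pass in May (23.6 and 17.7 against 27.5 and 23.6 in March) and reached 88.6 and 88.7 in September. TAGLN, an actin-binding protein of smooth muscle, had 208 and 142 in May and 192 and 182 in March. The call was lost by 4 of these 5 called genes when the May female was left out, by 4 for the May male, by 3 for the March female and by 0 for the March male, and adjusted p reached 0.154. In the list 1 fall was left without the May female and 3 without the March female, and without the May male 0 falls and 1 rise; without the March male 10 fell and 3 rose.

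**Figure D3:**
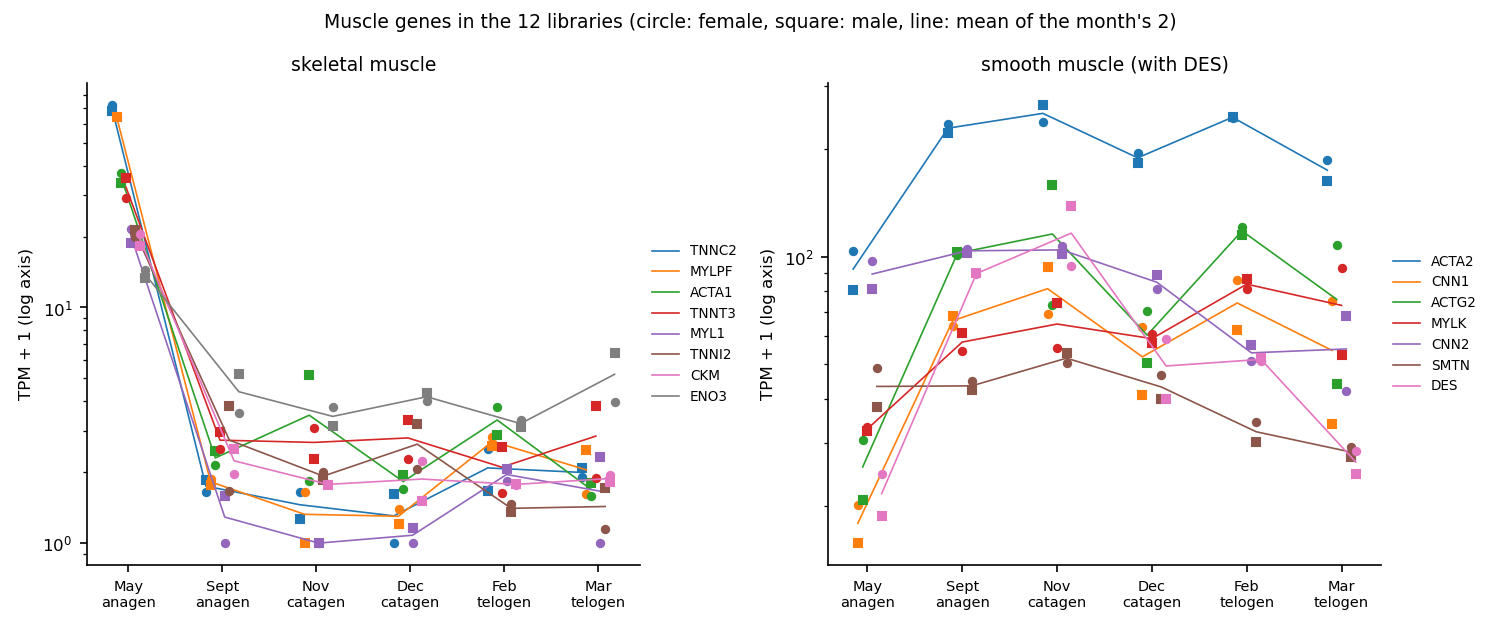
Level of muscle genes in the 12 libraries (TPM + 1, log axis) by month and labelled stage; circles are females, squares males and lines the mean of the 2. Fast skeletal muscle genes (left) are high in both May libraries alone, with TNNC2 at 71.4 and 66.97 TPM, and ACTA2 (right) is lowest in May at 103 and 79.7 TPM.

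MUCL1 (gene ID 102184692), a small mucin-like secreted protein known from glands, was listed at 0 in both May libraries. It had 34.6 and 42.7 TPM in March, 119 and 66.9 in February and 3.12 and 13.4 in September. The fall passed (adjusted p = 0.00446), no fold is given against a group at 0, and in September it was still lower than in March (adjusted p = 0.0468). LOC102184404, an unnamed gene that neighbours MUCL1 in the RefSeq annotation of goat (assembly ARS1.2), was chosen after its values were seen. It had 54.2 and 335 in May, 23761 and 5847 in March and 4899.6 and 10596 in September, with a log2 change of -6.43 (SE 0.91, adjusted p = 0.00498). LOC102172558, chosen in the same way, had 2.67 and 5.64 in May, 425 and 479 in March and 15.97 and 10.9 in September. In both genes every May library was far below every March library. Of 10 tested sweat gland genes, which include MUCL1, 2 fell and 1 rose: ATP1B1, a subunit of the sodium pump, went from 115 and 78.3 to 52.5 and 56.6, and AQP5, the water channel of secreting cells, from 0.92 and 4.51 to 9.71 and 10.8. The marker SCGB1D2 was not analysed here, and the part of gland tissue in these changes was not tested. Of the 5 calls named here, 2 rested on the March female, 0 on the March male, 2 on the May female and 2 on the May male, being lost with that library left out (adjusted p up to 0.159). The March female or male left out in turn, the log2 change was -5.42 or -7.45 in LOC102184404 and 1.03 or 2.55 in AQP5. The May female or male left out in turn, the log2 change was -5.13 or -7.74 in LOC102184404.

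Other large falls came from genes in none of the lists. FAM216B (gene ID 102176617) had 20.5 and 19.98 TPM in May, 82.4 and 96.2 in March and 21.2 and 27.2 in September, with the 2 libraries of each month close together. It fell by 2.08 (SE 0.21, adjusted p = 0.00121) and persisted. CDR1 had 6.82 and 5.5 in May and 44.6 and 23.1 in March; its locus also gives a circular RNA from the other strand, and the linear and circular forms cannot be told apart here. It fell by 2.22 (SE 0.31, adjusted p = 0.00475) and persisted. PCP4, a calmodulin-binding peptide of neurons, had 1.47 and 1.16 in May and 28.99 and 3.72 in March, and GJB1, the gap junction connexin of Schwann cells and glands, had 0.9 and 2.16 in May and 19.99 and 4.34 in March. In both the March female was the high library, and the changes were -2.37 and -2.11. Leaving out the May female ended 2 of these 4 calls, the May male 2, the March female 2 and the March male 0, with adjusted p as high as 0.242. GJB1 also lost the call when 1 library of another month was left out (either September library; adjusted p up to 0.0553). Leaving out the March female or the March male gave log2 changes of -1.03 or -3.70 in PCP4 and -1.12 or -3.10 in GJB1.

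Keratins of the inner root sheath were among the genes higher in May. This sheath surrounds the growing shaft and is lost in rest. KRT25 (gene ID 100861172) had 7416 and 5801 TPM in May, 1054 and 3714 in March and 6250.1 and 5209 in September, and KRT27 (gene ID 100861382), which pairs with the same type II keratins, had 7064 and 5707 in May, 739 and 3108 in March and 5864 and 4832 in September. In both, the March female was the lowest of the 4 libraries by a wide gap and the March male lay between it and May. KRT25 rose by 1.73 (SE 0.53, adjusted p = 0.0374) and KRT27 by 2.07 (SE 0.57, adjusted p = 0.0271). KRT74, another sheath keratin, had 275 and 304 in May and 39.1 and 181 in March and rose by 1.76 (adjusted p = 0.0409). CTSV, a cysteine protease of cornifying cells, rose from 255 and 422 to 796 and 722 and persisted. GATA3, a regulator of sheath fate, fell from 83.2 and 69.9 to 53.7 and 51.7 and persisted. Of 11 sheath genes 5 rose and 1 fell, with a median of 1.23 (0.63 without the March female and 2.08 without the March male); TCHH, with the values given above, did not pass (0.92, adjusted p = 0.168). Among these 5 called genes, omitting the March female ended the call of 5, the March male 0, the May female 5 and the May male 5 (highest adjusted p 0.188). KRT25 and KRT74 also lost the call when 1 library of another month was left out (either September, December or February library; adjusted p up to 0.0584). KRT74 lost the call with the replicate number (sex) as a block (adjusted p = 0.0532) and KRT25 lost the call with no filter on low values (adjusted p = 0.0528). The log2 change with the March female or the March male left out was 0.82 or 2.64 in KRT25, 1.03 or 3.10 in KRT27 and 0.67 or 2.85 in KRT74. No sheath gene was called without the March female, the May female or the May male, and 9 rises and 1 fall were called without the March male.

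The called hair shaft keratins had the same order of libraries. KRT40, of the shaft cuticle, had 88.8 and 112 TPM in May, 10.7 and 41.2 in March and 113 and 71.1 in September. It rose by 2.18 (SE 0.52, adjusted p = 0.01699) and persisted. KRT32, also a cuticle keratin, had 195 and 184 in May and 34.8 and 103 in March (1.64, adjusted p = 0.0177), and KRT36 had 31.4 and 29.9 in May and 7.63 and 19.3 in March (1.26, adjusted p = 0.0184); both persisted. The March female was the lowest library in all 3. KRT35, an early keratin of the matrix and cuticle, had 553 and 481 in May and 135 and 416 in March and did not pass (adjusted p = 0.0833). In all, 3 of 8 rose and 0 fell, with a median of 1.06 (0.19 without the March female and 1.90 without the March male). KRTAP3-1 (gene ID 100861180), a high-sulfur protein that crosslinks the shaft's keratins, fell. It had 844 and 852 in May and 2269 and 2038 in March with no overlap, and 1346 and 1609.7 in September. The change was -1.34 (SE 0.26, adjusted p = 0.00988). It was the 1 called of 3 keratin-associated proteins. Keratins of the outer root sheath rose in 2 of 4: KRT5, of basal cells, from 3341 and 4255 to 7681 and 8334, and KRT6A, of the companion layer, from 263 and 692 to 1110.4 and 961. Of these 6 called genes, 4 lost the call with the March female left out, 0 with the March male, 6 with the May female and 6 with the May male left out, with adjusted p up to 0.159. KRT5 also lost the call when 1 library of another month was left out (either September, December or February library; adjusted p up to 0.0619). KRT5 lost the call with no filter on low values (adjusted p = 0.0815). The March female or male left out in turn, the log2 change was 1.26 or 3.11 in KRT40, 0.87 or 2.41 in KRT32, 0.64 or 1.88 in KRT36 and 0.58 or 1.97 in KRT6A. With the March male left out 8 of the 8 shaft keratins were called, with the March female left out 1, and with either May library left out 0.

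**Figure D4:**
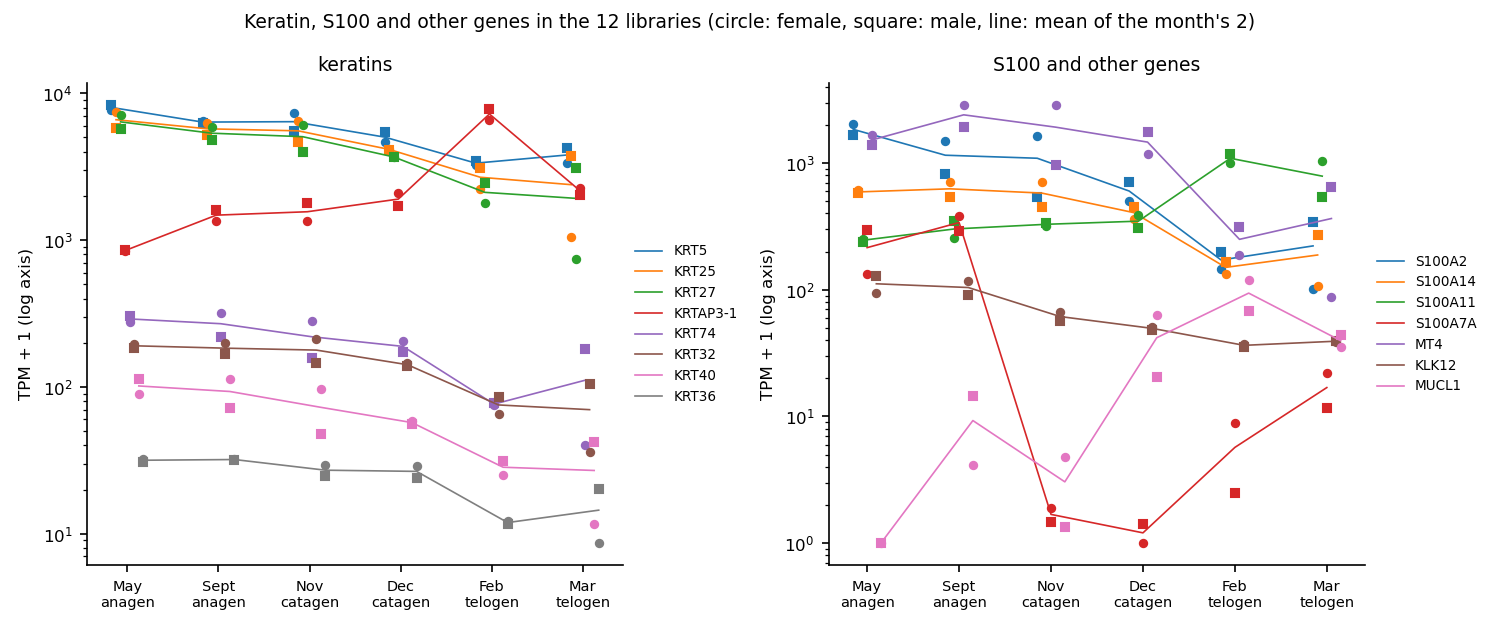
Level of keratin genes (left) and of S100 and other genes (right) in the 12 libraries (TPM + 1, log axis); circles are females, squares males and lines the mean of the 2. KRT25 is at 7416 and 5801 TPM in May and 1054 and 3714 in March, where the female is the lower point, and MUCL1 is at the floor of the axis in May.

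Transcription factors of the hair matrix showed no common direction. TP63, the master regulator of stratified epithelium, had 187 and 184 TPM in May, 596 and 361 in March and 198 and 208 in September. It fell by 1.32 (SE 0.23, adjusted p = 0.00834) and persisted. TFAP2A, which acts with it in keratinocytes, fell from 111 and 59.5 to 42.6 and 43.1, and RUNX1, a factor of hair stem cell activation, from 44.6 and 23.9 to 17.9 and 16.2; in all 3 the March female was the highest library. ELF5, an epithelial ETS factor, rose from 21.4 and 45.4 to 71.9 and 64.3, and HR (hairless), a corepressor needed for regrowth, from 109 and 141 to 209 and 194. HOXC13, which drives hair keratin genes, had 107 and 92.7 in May and 68.1 and 144 in March. FOXN1, the nude gene of shaft differentiation, had 47.2 and 48.8 in May and 34.7 and 63.7 in March. Neither passed (adjusted p = 0.987 and 0.943), and their small differences changed sign without the March female and with rescaling to equal sums. MSX2 had 59.2 and 53.8 in May and 68.2 and 76.4 in March and VDR, the vitamin D receptor, 93.03 and 76.6 in May and 78.2 and 102 in March; neither passed. Of 21 genes 2 rose and 3 fell, against 13.9% and 13.4% of all genes. The call was lost by 5 of these 5 called genes when the May female was left out, by 5 for the May male, by 4 for the March female and by 0 for the March male, and adjusted p reached 0.266. RUNX1 also lost the call when 1 library of another month was left out (either September or November library; adjusted p up to 0.0622). RUNX1 lost the call with no filter on low values (adjusted p = 0.0517) and with no variance trend (adjusted p = 0.0519).

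S100 proteins, small calcium-binding proteins of keratinocytes, held some of the largest rises that lasted. S100A7A (gene ID 102173556) had 132 and 296 TPM in May, 21.1 and 10.7 in March and 384 and 292 in September, a rise of 3.63 (SE 0.57, adjusted p = 0.00633). The lowest May library was above the highest March library by a wide gap, although the 2 libraries differed in each month. S100A2 (gene ID 102189534) had 2033 and 1650.3 in May, 99.5 and 342 in March and 1482 and 821 in September (3.30, SE 0.61, adjusted p = 0.00906). S100A14 had 607 and 574 in May, 106 and 268 in March and 707 and 542 in September and rose by 1.80. S100A11 fell instead, from 1033 and 541 to 252 and 237 (-1.61, adjusted p = 0.00834). The March female stood apart from the March male in S100A2, S100A14 and S100A11. Of 17 genes with S100 names, among them S100PBP, which is not itself an S100 protein gene, 5 rose and 1 fell. All 6 persisted, and the median was 0.65 (0.28 without the March female and 0.99 without the March male). Of the 4 calls named here, 0 rested on the March female, 0 on the March male, 3 on the May female and 3 on the May male, being lost with that library left out (adjusted p up to 0.074). The log2 change with the March female or the March male left out was 2.42 or 4.19 in S100A2 and 1.14 or 2.46 in S100A14. With either May library left out 1 S100 rise was called.

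Genes of the cornified layer rose in 4 of 22 and fell in 0, against 13.9% and 13.4% of all genes. KLK12, a kallikrein protease of shedding epidermis, had 93.6 and 127 TPM in May, 38.01 and 38.5 in March and 116 and 90.2 in September. The March libraries were almost equal and well below May, and the rise of 1.49 (SE 0.17, adjusted p = 0.00281) persisted. CDSN (corneodesmosin), the glue of corneocytes and of the inner root sheath, had 573 and 456 in May and 156 and 244 in March (1.39, adjusted p = 0.0102), and RPTN (repetin), a matrix protein of the envelope, had 77.2 and 47.5 in May and 12.4 and 23.9 in March (1.75, adjusted p = 0.0258). TGM1, the transglutaminase that crosslinks the envelope, went from 20.6 and 33 to 51.5 and 43.2 (0.83, adjusted p = 0.0229). MT4, the metallothionein of stratified epithelium, had 1650.4 and 1386 in May, 85.9 and 642 in March and 2862 and 1938 in September. It rose by 2.68 (SE 0.80, adjusted p = 0.0343) and persisted, with the 2 March libraries far apart. KRT1, LOR and KRT10, the classical markers of that layer, did not pass, with KRT1 at 567 and 1256 in May and 1398 and 622 in March and LOR at 113 and 112 in May and 83.2 and 45.2 in March. Leaving out the May female ended 4 of these 5 calls, the May male 4, the March female 3 and the March male 0, with adjusted p as high as 0.18. The March female or male left out in turn, the log2 change was 1.24 or 4.12 in MT4. The cornified list held 1 rise with either May library left out, 3 rises with the March female, and 5 rises and 3 falls with the March male left out.

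Transcripts of the mitochondrial genome fell together. This small genome codes for core subunits of the respiratory chain, while the nucleus supplies all others. ND2 (gene ID 1485857), of complex I, had 99.7 and 92.3 TPM in May, 2209 and 454 in March and 169 and 221 in September and fell by 3.37 (SE 0.56, adjusted p = 0.00694). ND1 had 183 and 194 in May, 3607 and 548 in March and 194 and 339 in September, a change of -2.89 (SE 0.68, adjusted p = 0.0164). COX1, the catalytic subunit of complex IV, had 3563 and 3556 in May, 30611 and 9813 in March and 4028 and 5722 in September (-2.28, SE 0.56, adjusted p = 0.0186). In each gene both May libraries were nearly equal, and the March female was several times above the March male. ATP6, of the ATP synthase, went from 9039 and 2059.8 to 686 and 595, CYTB, of complex III, from 5568 and 1446 to 681 and 617, and ND3 from 11889 and 6674 to 1679 and 1643. ND4 and ND5 changed by -2.69 and -2.19 and COX2 by -2.34. Of 13 genes 12 fell, with a median of -2.28 (-1.46 without the March female and -3.10 without the March male), and 11 persisted; COX2 was the exception (-1.21 in September, adjusted p = 0.0721). The summed level was 14630 and 14260 in May, 108700 and 41880 in March, 19300 and 26040 in September and 96880 and 114600 in February, so that the March male was below all other telogen libraries. Among these 9 called genes, omitting the March female ended the call of 1, the March male 0, the May female 9 and the May male 9 (highest adjusted p 0.0978). Leaving out the March female or the March male gave log2 changes of -2.23 or -4.51 in ND2, -1.53 or -4.25 in ND1, -1.46 or -3.10 in COX1, -1.69 or -3.82 in ATP6, -1.16 or -3.10 in CYTB, -1.59 or -3.80 in ND4 and -1.21 or -3.17 in ND5. Of the whole list 9 falls were called without the March female, 13 without the March male and 0 without either May library.

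Nuclear genes with NDUF, ATP5 and SDH names, for parts of the same respiratory chain, rose in 19 of 59 and fell in 5. Over all genes 13.9% rose and 13.4% fell. The median of the list was 0.40 (0.20 without the March female and 0.53 without the March male). Nuclear genes named for complexes III and IV are not in this list. NDUFA1, an accessory subunit of complex I, had 294 and 271 TPM in May, 45.8 and 75.9 in March and 246 and 202 in September, a rise of 2.24 (SE 0.32, adjusted p = 0.00519). NDUFB1 had 203 and 187 in May, 33.1 and 44.8 in March and 173 and 100.4 in September (2.31, SE 0.38, adjusted p = 0.00678). Neither gene overlapped between May and March. ATP5A1, the alpha subunit of the ATP synthase, rose from 172 and 248 to 436 and 424. NDUFA3, also of complex I, fell from 195 and 198 to 87 and 97.3 and had 167 and 221 in September, and ATP5J2 fell from 696 and 1029.7 to 439 and 431. Of the rises 18 persisted and of the falls 1, which was NDUFA4L2, a subunit known from low oxygen (37.8 and 32.9 in May and 179 and 51.02 in March). Of 21 glycolysis genes, which include the transporters SLC2A1, SLC16A1 and SLC16A3, 4 rose and 0 fell. PGK1, which makes the first ATP of the pathway, went from 63.95 and 84.7 to 130.1 and 143, LDHB from 61.8 and 66.4 to 99.9 and 97.8, and PFKM, the muscle phosphofructokinase, from 18.6 and 25.9 to 35.9 and 39.2; the fourth was ENO3. Of these 9 called genes, 5 lost the call with the March female left out, 1 with the March male, 8 with the May female and 7 with the May male left out, with adjusted p up to 0.173. NDUFA4L2 also lost the call when 1 library of another month was left out (either September, December or February library; adjusted p up to 0.0599). NDUFA4L2 lost the call with the replicate number (sex) as a block (adjusted p = 0.0511). The log2 change with the March female or the March male left out was -0.52 or -2.31 in NDUFA4L2. In the nuclear list 3 rises and 3 falls were called without the March female, 29 rises and 2 falls without the March male, and 1 rise with the May female or 2 with the May male left out.

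Ribosomal protein genes rose in 22 of 76 and fell in 5, with a median of 0.33 (0.12 without the March female and 0.57 without the March male). Many have near-identical processed copies in the genome, between which reads can be split, so single members are uncertain. RPL39 (gene ID 102175839) had 1836 and 1397 TPM in May, 96.2 and 194 in March and 1386 and 758 in September and rose by 3.54 (SE 0.57, adjusted p = 0.006401). RPLP2 (gene ID 102179549), of the stalk that recruits translation factors, had 1653 and 1485 in May, 122 and 298 in March and 1579 and 879.7 in September (3.03, SE 0.55, adjusted p = 0.00859). For both genes the March libraries were low, and in September the female was near May and the male lower. RPL35A rose from 702 and 1196 to 3665 and 3572. RPL38 fell from 2225 and 2512 to 1079 and 1066. RPL23A fell from 4615 and 3034 to 1583 and 1455. Of the rises 19 persisted and of the falls 0. The list's share of the summed signal was 18.76% and 17.86% in May and 12.8% and 17.91% in March, so the March male lay within the range of the May libraries. The call was lost by 5 of these 5 called genes when the May female was left out, by 4 for the May male, by 2 for the March female and by 0 for the March male, and adjusted p reached 0.11. The March female or male left out in turn, the log2 change was 2.39 or 3.67 in RPLP2. In the list, 2 rises and 2 falls were called without the March female, 28 rises and 5 falls without the March male, 0 genes without the May female, and 1 rise without the May male.

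Of 33 factors of ribosome biogenesis 9 rose and 2 fell, against 13.9% and 13.4% of all genes, and all 11 persisted. The median was 0.32 (0.08 without the March female, 0.62 without the March male and 0.20 without the May female). Most of the rises were genes with RRP names: RRP1, RRP1B, RRP7A, RRP9, RRP12 and RRP36. RRP36 (gene ID 102172581), of the early pre-ribosome, had 27.96 and 28.8 TPM in May, 4.35 and 3.5 in March, 5.03 and 4.18 in February and 27.5 and 26.1 in September. It rose by 2.58 (SE 0.14, adjusted p = 3.8e-05). RRP1 (gene ID 102169138), of the large subunit path, had 27.7 and 33.1 in May, 3.12 and 5.87 in March and 31.7 and 30.9 in September (2.56, SE 0.21, adjusted p = 0.000657), and RRP7A, of the small subunit path, had 12.6 and 12.5 in May, 0.94 and 1.94 in March and 15.7 and 15.2 in September (2.50, SE 0.22, adjusted p = 0.000811). In all 3, May and September were close and March far below, with no overlap, and the changes against March in September were 2.50, 2.60 and 2.78. NOP10, of the box H/ACA particles that modify ribosomal RNA, fell from 164 and 134 to 55.1 and 42.6 (-1.59, SE 0.19, adjusted p = 0.00327) and stood at 80.7 and 111 in September. POLR1C, a subunit of RNA polymerase I, rose from 15.9 and 20.8 to 28.2 and 31.8. Of the 5 calls named here, 1 rested on the March female, 0 on the March male, 1 on the May female and 1 on the May male, being lost with that library left out (adjusted p up to 0.106). Of the list 6 rises were called with the May female left out, 7 with the May male and 7 with the March female, each beside 1 fall, and 17 rises and 3 falls without the March male.

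**Figure D5:**
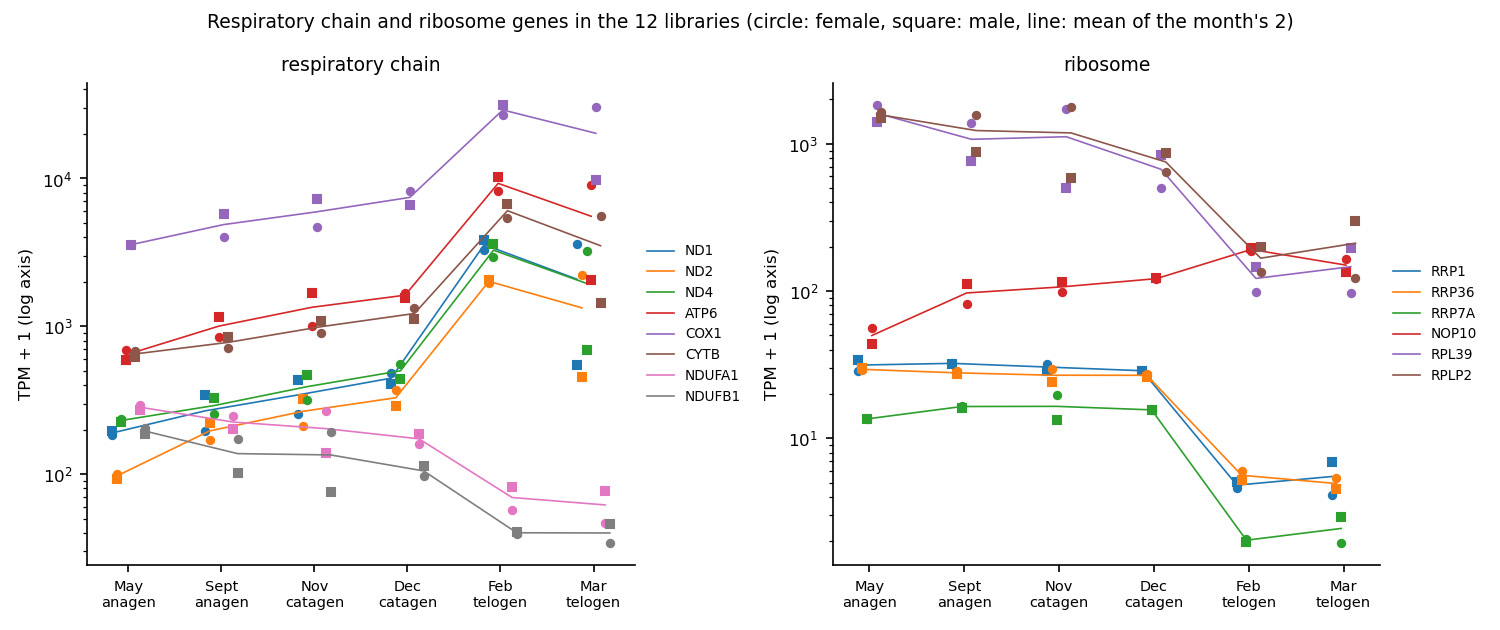
Level of respiratory chain genes (left) and ribosome genes (right) in the 12 libraries (TPM + 1, log axis); circles are females, squares males and lines the mean of the 2. COX1 is at 3563 and 3556 TPM in May and 30611 and 9813 in March, and RRP36 at 27.96 and 28.8 in May and 4.35 and 3.5 in March.

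Proteasome subunits, which form the machine that degrades ubiquitin-tagged proteins, rose in 12 of 38 and fell in 4, with a median of 0.42 (0.27 without the March female and 0.71 without the March male). PSMB7, a catalytic subunit, went from 83.1 and 120.1 to 249 and 241 TPM (1.29, adjusted p = 0.0103). PSMC1, an ATPase of the cap, went from 46.2 and 69.98 to 122 and 132 (1.14, adjusted p = 0.00988). PSMD10 (gankyrin), an assembly chaperone of the cap, fell from 579 and 742 to 172 and 166 and stood at 195 and 239 in September. This was the largest fall of the list and persisted (-1.95, SE 0.22, adjusted p = 0.00281). COPS9, a subunit of the related COP9 signalosome, had 249 and 211 in May, 26.2 and 51.6 in March and 178 and 143 in September (2.61, SE 0.40, adjusted p = 0.00596) and also persisted. Leaving out the May female ended 3 of these 4 calls, the May male 2, the March female 1 and the March male 0, with adjusted p as high as 0.0676. Of the proteasome list 1 rise and 1 fall were called without the March female, 22 rises and 3 falls without the March male, and 1 fall with either May library left out.

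Genes of cell division gave no rise in mitosis and a mixed picture in DNA replication. MKI67, the usual proliferation marker, had 13.6 and 14.1 TPM in May and 18.9 and 14.1 in March, where the March male matched the May male, and did not pass (-0.23, adjusted p = 0.323). TPX2, of the mitotic spindle, had 20.1 and 19.6 in May and 33.1 and 28.8 in March; it fell by 0.61 (SE 0.13, adjusted p = 0.0134) and persisted. TOP2A, which untangles DNA before division, had 45.3 and 47.6 in May and 66.8 and 76.7 in March (-0.61, adjusted p = 0.04696), and CCNA2 (cyclin A) had 24.3 and 21.6 in May and 31.4 and 32.4 in March (-0.46, adjusted p = 0.0359). Of 28 genes 8 fell, with a median of -0.22 (-0.35 without the March female and -0.10 without the March male), and 1 persisted. These falls were small, and TOP2A and CCNA2 sat near the threshold. In DNA replication 5 of 26 rose and 3 fell, against 13.9% and 13.4% of all genes. MCM7, of the replicative helicase, went from 43.4 and 50.7 to 71.7 and 68.4 (0.57, adjusted p = 0.0158) and FEN1, the flap nuclease, from 7.47 and 9.64 to 17.5 and 16.2 (0.91, adjusted p = 0.0162). Both persisted. Among these 5 called genes, omitting the March female ended the call of 5, the March male 2, the May female 5 and the May male 5 (highest adjusted p 0.181). TOP2A and CCNA2 also lost the call when 1 library of another month was left out (either September, November or December library; adjusted p up to 0.064). TOP2A lost the call with no filter on low values (adjusted p = 0.053) and with no variance trend (adjusted p = 0.0557). In mitosis 5 falls and 2 rises were called without the March male, and 0 genes without the March female or either May library.

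Of 24 genes of the bulge and hair germ 7 fell and 2 rose, against 13.4% and 13.9% of all genes. The median was -0.29 (-0.12 without the March female, -0.38 without the March male and -0.16 without the May male). CD34, a surface marker of bulge cells in mouse and also of vessels, had 32.4 and 27.1 TPM in May and 79.1 and 44.2 in March and fell by 0.97 (SE 0.26, adjusted p = 0.0255). NFIB, a transcription factor of hair stem cells, had 85.9 and 89.2 in May and 128 and 113 in March (-0.46, adjusted p = 0.0304), and TCF7L2, a Wnt effector of the hair germ, had 23.3 and 18.6 in May and 47.1 and 28.5 in March (-0.79, adjusted p = 0.0243); both persisted. The March female was the highest library in each. LRIG1, a brake on EGF receptors in the upper follicle, rose from 42.1 and 51.98 to 70.7 and 74.7 (0.62, adjusted p = 0.0215). LGR5, of the lower bulge and germ, had 56.7 and 63.7 in May and 68.7 and 62.05 in March, SOX9 114 and 92.7 in May and 140.3 and 126 in March, and LHX2 44.8 and 36.2 in May and 64.5 and 38.5 in March. None of these 3 passed (adjusted p = 0.491, 0.124 and 0.334). In the dermal papilla list 2 of 21 fell and 0 rose. INHBA, an activin subunit, fell from 14.9 and 11.3 to 6.98 and 5.75 and persisted. VCAN (versican), a papilla matrix proteoglycan, had 21.02 and 20.9 in May and 32.03 and 32.4 in March, and CORIN 1.53 and 1.71 in May and 2.04 and 2.3 in March; neither passed (adjusted p = 0.0749 and 0.201). Of these 5 called genes, 5 lost the call with the March female left out, 0 with the March male, 5 with the May female and 5 with the May male left out, with adjusted p up to 0.146. Of the bulge list 9 falls and 1 rise were called without the March male and 0 genes without the March female or either May library.

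Wnt ligands rose in 4 of 14 and fell in 0, against 13.9% and 13.4% of all genes, with a median of 0.45. WNT11, a ligand of the beta-catenin-independent branch, had 48.04 and 35.6 TPM in May, 11.6 and 24.04 in March and 43.05 and 36.2 in September (1.26, SE 0.30, adjusted p = 0.0166). WNT10A, a ligand whose loss thins hair, had 11.2 and 9.49 in May, 4.52 and 6.09 in March and 12.4 and 10.1 in September (0.85, SE 0.21, adjusted p = 0.0175), and both persisted. WNT3A had 6.87 and 7.33 in May and 2.35 and 3.14 in March (1.12, adjusted p = 0.0101). May was above March in each with no overlap. WNT10B, a ligand of early anagen, had 8.53 and 4.83 in May and 1.84 and 4.41 in March and did not pass (0.93, adjusted p = 0.0559), nor did WNT5A (33.8 and 26.9 in May and 35.1 and 32.1 in March). Among receptors and effectors 5 of 33 rose and 4 fell, near those shares of all genes. CTNNB1 (beta-catenin) rose from 202 and 315 to 499 and 505 and DVL1, which relays the receptor signal, from 10.5 and 12.6 to 28.99 and 28.6. APC and GSK3B, of the complex that destroys beta-catenin, fell from 25.9 and 20.1 to 15.6 and 15.6 and from 49.7 and 40.1 to 30.5 and 31.2. SP5, a direct Wnt target, fell from 3.53 and 5.86 to 2.1 and 2.35. LEF1, the transcription partner of beta-catenin in the matrix, had 52.7 and 44.9 in May and 65.8 and 65.9 in March (-0.43, adjusted p = 0.0507) and did not pass. The call was lost by 8 of these 8 called genes when the May female was left out, by 7 for the May male, by 6 for the March female and by 1 for the March male, and adjusted p reached 0.175. GSK3B also lost the call when 1 library of another month was left out (either December library; adjusted p up to 0.053). No Wnt ligand was called without the March female or either May library, and 5 rises and 1 fall were called without the March male.

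Hedgehog signalling is known to drive matrix growth in anagen. GLI1, a direct target, had 10.7 and 7.29 TPM in May and 15.8 and 11.99 in March (-0.58, adjusted p = 0.0429), and DHH, a ligand of Schwann cells, had 8.81 and 6.66 in May and 13.5 and 15.6 in March (-0.84, adjusted p = 0.0137). SMO, the signal transducer, rose from 11.3 and 14.9 to 22.4 and 19.4. SHH, the ligand of the growing follicle, had 3.8 and 2.56 in May and 6.2 and 4.52 in March, with both May values below March, and did not pass (adjusted p = 0.0523); PTCH1, its receptor and target, had 43.9 and 37.01 in May and 51.8 and 48.3 in March (adjusted p = 0.193). Of 15 pathway genes 1 rose and 3 fell, against 13.9% and 13.4% of all genes, and 0 were called with either May library left out, 1 fall without the March female and 6 falls and 1 rise without the March male. Of 39 BMP and TGF-beta genes 9 fell and 5 rose, against 13.4% and 13.9% of all genes. BAMBI, a decoy receptor, rose from 9.56 and 30.3 to 57.6 and 47.9 and CHRD (chordin), which traps BMPs, from 1.62 and 4.05 to 8.9 and 8.56. GREM1, another BMP trap, fell from 31.6 and 13.9 to 9.41 and 8.71. BMPR2, a receptor, fell from 93.98 and 63.1 to 45.04 and 43.96. The target ID1 rose from 67.5 and 71.3 to 116 and 104 and the target ID2 fell from 95.6 and 64.2 to 46 and 38.01, so these targets did not move one way. BMP2 had 22.2 and 18.3 in May and 12.1 and 19.5 in March, BMP4 36.4 and 38.3 in May and 28.9 and 32.4 in March, and NOG (noggin) 0.91 and 0.47 in May and 0.86 and 0.99 in March; none passed (adjusted p = 0.2499, 0.176 and 0.502). Of the 9 calls named here, 7 rested on the March female, 0 on the March male, 9 on the May female and 9 on the May male, being lost with that library left out (adjusted p up to 0.265). GLI1, SMO and GREM1 also lost the call when 1 library of another month was left out (either September, November, December or February library; adjusted p up to 0.0619). GLI1 lost the call with no filter on low values (adjusted p = 0.0533) and with February and March together as reference (adjusted p = 0.0536). The March female or male left out in turn, the log2 change was 0.77 or 2.34 in BAMBI. In the BMP list 1 rise was called without the March female, 8 rises and 10 falls without the March male, and 0 genes without either May library.

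Of 25 genes of FGF signalling, which are ligands, receptors and targets, 1 rose and 2 fell, against 13.9% and 13.4% of all genes. FGF7 (keratinocyte growth factor), a papilla signal, had 5.79 and 4.05 TPM in May and 19.5 and 9.76 in March and fell by 1.34 (SE 0.33, adjusted p = 0.0182). FGF21, an endocrine FGF, had 10.04 and 18.3 in May, 1.06 and 4.83 in March and 14.8 and 12.8 in September (2.07, SE 0.41, adjusted p = 0.0103) and persisted. FGF5, the signal that ends anagen and whose loss lengthens hair, had 4.28 and 3.41 in May and 0.49 and 4.53 in March, where the March male was above both May libraries. FGF18, a signal of resting follicles, had 4.02 and 2.45 in May and 1.4 and 3.22 in March, and FGF10 2.58 and 1.4 in May and 1.87 and 2.07 in March. These 3 overlapped and did not pass (adjusted p = 0.297, 0.397 and 0.956), and their signs depended on single libraries. In the Notch pathway, which guides sheath and shaft fates, 5 of 18 rose and 3 fell. NOTCH3 rose from 19.96 and 26.2 to 65.01 and 58.99 (1.40, adjusted p = 0.00633) and persisted, the ligand JAG2 from 24.4 and 27.98 to 55.9 and 50.5 (1.00, adjusted p = 0.0124), and LFNG, a modifier of Notch receptors, from 9.84 and 14.7 to 36.3 and 35.6 (1.50, adjusted p = 0.0115). TGFA, a ligand of the EGF receptor, rose from 15.8 and 22.9 to 35.6 and 35.6 and persisted, as did IGFBP6, a binding protein of IGF2, from 10.9 and 18.5 to 54.3 and 37.2. IGF1, a growth factor of the papilla, had 11.3 and 17.2 in May and 23.4 and 17.6 in March and did not pass (adjusted p = 0.151). Leaving out the May female ended 6 of these 7 calls, the May male 6, the March female 5 and the March male 0, with adjusted p as high as 0.105. Leaving out the March female or the March male gave log2 changes of 1.32 or 2.83 in FGF21. Of the FGF list 1 rise was called without the May female or the March female, 0 genes without the May male, and 4 rises and 4 falls without the March male.

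The cashmere cycle is known to follow day length through melatonin and prolactin. PRLR, the prolactin receptor, had 57.7 and 62.9 TPM in May, 123 and 76.8 in March and 49.2 and 44.3 in September. Both May libraries were below both March libraries and the change of -0.68 did not pass (adjusted p = 0.0563), whereas September against March did (-1.04, adjusted p = 0.0232). A difference between these 2 changes was not shown. JAK2, the kinase below that receptor, fell from 43.7 and 34.4 to 24.6 and 26.3 (-0.59, adjusted p = 0.0191). MTNR1A, a melatonin receptor, was below the filter on low values. ESR1, the estrogen receptor, fell from 6.63 and 5.27 to 3.33 and 3.66 (-0.62, adjusted p = 0.0182) and persisted. RARG, a retinoic acid receptor of epidermis, rose from 44.8 and 53.9 to 85.5 and 80.5 (0.74, adjusted p = 0.0117). Of 22 receptors and related genes 5 fell and 2 rose, against 13.4% and 13.9% of all genes. Among these 3 called genes, omitting the March female ended the call of 3, the March male 0, the May female 3 and the May male 3 (highest adjusted p 0.111).

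The circadian clock list had 2 rises and 4 falls among 23, against 13.9% and 13.4% of all genes. CLOCK, an activator, fell from 19.6 and 13.6 to 9.13 and 8.8 TPM (-0.80, SE 0.17, adjusted p = 0.0131). BHLHE41, a repressor, fell from 29.4 and 13.3 to 7.44 and 7.29 (-1.32, SE 0.31, adjusted p = 0.0166) and BHLHE40, its relative, from 64.6 and 36.5 to 24.97 and 26.2 (-0.90, adjusted p = 0.02496), and both persisted. CRY2, a repressor of the core loop, rose from 7.79 and 8.9 to 11.9 and 12.2 (0.49, adjusted p = 0.0383). ARNTL, the partner of CLOCK, had 13.9 and 12.3 in May and 15.4 and 12 in March, and PER1, PER2, PER3, CRY1, NR1D1, NR1D2, DBP and CIART did not pass either. Their differences ran from -0.58 for CIART to 0.39 for PER1. CIART had 15.98 and 31.4 in May and 43.97 and 26.2 in March, and DBP 30.4 and 37.4 in May and 30.6 and 27.3 in March. PER1 differed between the May libraries (10.5 and 17.5), and the hour of sampling is not given in the sources used here. Of these 4 called genes, 4 lost the call with the March female left out, 0 with the March male, 4 with the May female and 4 with the May male left out, with adjusted p up to 0.162. CRY2 also lost the call when 1 library of another month was left out (either December library; adjusted p up to 0.0545). CRY2 lost the call on rescaling to equal sums (adjusted p = 0.0717) and with no filter on low values (adjusted p = 0.0503). Of the clock list 0 genes were called without the March female or either May library, and 4 rises and 7 falls without the March male.

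Cholesterol and fat genes split. In cholesterol synthesis 5 of 21 rose and 2 fell, against 13.9% and 13.4% of all genes. PMVK, MVD and FDPS, enzymes of the mevalonate path, went from 5.56 and 10.2 to 27.3 and 25.3 TPM, from 16.5 and 28.6 to 56.8 and 53.8 and from 49.9 and 78.9 to 147 and 128. Their changes were 1.67 (adjusted p = 0.006401), 1.31 (adjusted p = 0.0119) and 1.11 (adjusted p = 0.0118), and all persisted. INSIG1, which restrains the path when sterols are high, rose from 44.4 and 69.3 to 156 and 141 and persisted. SC5D, near the end of the path, fell from 72.7 and 56.9 to 39.98 and 41.3. Of 23 genes of the sebaceous gland and lipid droplets 4 fell and 3 rose, against 13.4% and 13.9% of all genes. The median was -0.49 (-0.12 without the March female, -0.49 without the March male and -0.25 without the May male). SCD (gene ID 100860763), the desaturase that is abundant in sebocytes, had 105 and 126 in May, 793 and 348 in March and 256 and 503 in September and fell by 2.18 (SE 0.46, adjusted p = 0.01202). ELOVL6, a fatty acid elongase, fell from 148 and 75.99 to 37.05 and 44.9 and PPARG, the receptor that drives sebocyte and fat cell maturation, from 57.7 and 25.4 to 15.2 and 16.8. The summed level of the list was 1957 and 2256 in May and 3486 and 2165 in March, where the female was high, and the part of gland tissue was not tested. The call was lost by 8 of these 8 called genes when the May female was left out, by 7 for the May male, by 7 for the March female and by 0 for the March male, and adjusted p reached 0.227. SC5D and PPARG also lost the call when 1 library of another month was left out (either December library; adjusted p up to 0.0548). Leaving out the March female or the March male gave log2 changes of -1.59 or -2.78 in SCD.

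Collagens and fibroblast matrix rose in 10 of 50 and fell in 4, against 13.9% and 13.4% of all genes. COL16A1, a collagen that links fibrils, had 86.3 and 92.3 TPM in May, 28.7 and 34.1 in March and 61.8 and 53.1 in September and rose by 1.48 (SE 0.14, adjusted p = 0.001099). COL18A1, of basement membranes, had 203 and 199.8 in May, 48.1 and 90.8 in March and 161 and 122 in September (1.59, SE 0.29, adjusted p = 0.00872). Both persisted. COL1A1, COL1A2 and COL3A1, the fibrillar collagens of dermis, did not pass; COL1A2 had 515 and 563 in May and 97.8 and 343 in March, with the March female low. FMOD (fibromodulin), a small proteoglycan of collagen fibrils, fell from 46.5 and 40.9 to 22.03 and 14.3 (-1.25, SE 0.21, adjusted p = 0.006997) and persisted, and FN1 (fibronectin) fell from 73.9 and 67.2 to 45.8 and 37.8. Among metalloproteinases and inhibitors 4 of 38 fell and 2 rose. MMP9 (gelatinase B), of leukocytes, had 1.2 and 0.57 in May and 8.71 and 3.33 in March (-1.80, adjusted p = 0.00982), and MMP7, of glands, 5.16 and 7.14 in May and 35.97 and 10.3 in March. Of the 6 calls named here, 2 rested on the March female, 0 on the March male, 4 on the May female and 5 on the May male, being lost with that library left out (adjusted p up to 0.238). MMP7 also lost the call when 1 library of another month was left out (either September or December library; adjusted p up to 0.0587). MMP7 lost the call with the replicate number (sex) as a block (adjusted p = 0.0531). The log2 change with the March female or the March male left out was -0.67 or -2.38 in MMP7. The collagen list had 7 rises and 1 fall with the March female left out, 16 and 4 with the March male, 5 and 1 with the May female, and 6 and 0 with the May male left out.

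Among marker lists of other skin cell types, called genes mostly fell in the T and B cell, myeloid and Schwann cell lists. Over all genes 13.9% were higher in May and 13.4% lower. Of 14 T and B cell genes 3 fell and 0 rose, with a summed level of 46.1 and 47.8 TPM in May and 73.2 and 87.3 in March. GZMA, a protease of killer cells, had 15.3 and 17.6 in May and 35.5 and 45.8 in March (-1.24, SE 0.18, adjusted p = 0.00543) and persisted. Of 14 myeloid genes 5 fell and 0 rose, and the sum was 140.1 and 114 in May and 359 and 159 in March, with the March female high. CD74, a chaperone of antigen presentation, had 70.1 and 51.01 in May and 238 and 86.4 in March and changed by -1.25. CD68, of macrophages, fell from 10.8 and 6.81 to 4.36 and 5.03. Of 14 Schwann cell genes 5 fell and 2 rose. Of the falls 4 persisted in the Schwann cell list, 2 in the T and B cell list and 1 in the myeloid list. In September 3 myeloid genes were higher than in March and 1 was lower. PMP22, a protein of myelin, went from 83.3 and 52.98 to 33.6 and 21.6. Of 18 endothelial genes 1 fell and 1 rose: EMCN (endomucin) went from 40 and 19.7 to 10.3 and 9.45, and CLDN5, a tight junction protein of vessels, from 9.35 and 6.78 to 13.5 and 15.3. PECAM1, a defining endothelial marker, had 26.6 and 27.5 in May and 75.5 and 36.3 in March and did not pass. Of 15 melanocyte genes 1 fell, TYRP1, a pigment enzyme, from 3.75 and 2.34 to 0.17 and 0.74. The interferon-induced gene MX2 fell from 43.5 and 48.1 to 23.3 and 21.7 and persisted; it was the single fall, beside 1 rise, among 20 interferon genes. Adipocyte genes had 2 falls and 1 rise among 11, and mast cell and red blood cell genes 0 calls among 5. The part of these cell types in the other results was not tested. Leaving out the May female ended 6 of these 8 calls, the May male 7, the March female 4 and the March male 1, with adjusted p as high as 0.221. CD74 and CD68 also lost the call when 1 library of another month was left out (either September or December library; adjusted p up to 0.0568). The March female or male left out in turn, the log2 change was -0.52 or -1.97 in CD74. Without the March male 11 endothelial genes and 7 myeloid genes fell, and without the March female 0 of each list fell.

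Handling and stress genes showed no common direction. Of 22 immediate early genes, which respond within minutes, 2 rose and 2 fell, against 13.9% and 13.4% of all genes. IER5 went from 13.4 and 23.7 to 46.6 and 33.8 TPM and MYC from 56.4 and 41.04 to 25.2 and 20.98 (1.11 and -1.03, adjusted p = 0.0172 and 0.0133). Of 19 heat shock chaperones 1 rose and 2 fell, and of 23 apoptosis genes 2 rose and 3 fell, against the same shares. CASP6, an effector caspase, rose from 10.8 and 14.4 to 30.6 and 26.5 (1.12, SE 0.21, adjusted p = 0.00977). GPX2, a glutathione peroxidase, fell from 132 and 101 to 43.7 and 57.7. Only CASP6 and IER5 of these 4 persisted in September. Among these 4 called genes, omitting the March female ended the call of 3, the March male 0, the May female 4 and the May male 4 (highest adjusted p 0.138).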

How the data were processed

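Total RNA of secondary hair follicles was extracted with RNAiso Plus and sequenced as 12 libraries, per the labels' protocols; the submitters' processing notes name kallisto 0.46.1 and sleuth 0.30.0, and the genome build is not given in the sources used here. The deposited values, a signal per gene headed TPM by the authors, summed to between 904623 and 1127797 per library rather than to one fixed sum, and the scaling behind this is not given in the sources used here. Read depth is unknown, so low values carry a counting error that cannot be given. Over the tested genes, zeros included, no 2 libraries had more than 1.547% of values exactly equal. Of 20326 gene IDs, 20294 matched a symbol in the RefSeq table and 32 did not.

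Values were taken as log2(TPM + 1), and genes reaching 1 TPM in 2 or more libraries (16095) were fitted with limma 3.58.1 in R 4.3.3, with 1 mean per month, 1 spread shared by the 6 months, a variance trend and Benjamini-Hochberg adjustment (threshold 0.05). The script was tested on simulated data. Replicate numbers mark sex. Genes were named by fixed rules: the 15 largest called rises and falls with no overlap and a mean of at least 5 TPM; the 8 largest persisting and reversed ones; a set of follicle, signalling and clock genes whatever their result; and per list up to 4 abundant and 3 most changed called members in each direction. Some genes that these rules name are not reported here. The gene lists and the genes in them were chosen with earlier results of these data known. Alternatives changed the scaling, pseudocount, filter, trend, reference month, libraries and replicate block.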

Additional observations from a re-analysis of the deposited data

Results flagged for a closer look

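On the first principal component of all tested genes the March male, at 22.97, lay far from the other 3 telogen libraries (56.4 in the March female, 52.37 and 52.84 in February). Among the catagen libraries, the December female had the lowest share of ribosomal protein genes, 20.93% of the summed signal, and the November male the lowest share taken by its 10 highest genes, 10.91%. These 3 were found in 21 searches over stage groups of 4, in which chance marks about 1 in 20.

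For 12 named genes the change from March differed between May and September, as September against May passed in limma. Muscle genes were lower in September, on the log2 scale: TNNC2 by -5.332, MYLPF by -5.143, MYL1 by -4.005, ACTA1 by -3.948, TNNT3 by -3.561, CKM by -3.125, TNNI2 by -3.035 and ENO3 by -1.687. DES was higher in September by 2.063 and ACTA2 by 1.322. Of the unnamed genes, chosen after their values were seen, LOC102168680 was higher in September by 5.472 and LOC102176710 by 4.646. LOC102168680 had 65.38 and 66.67 TPM in September, 0.74 and 0.31 in May and 0.46 and 0.47 in March. LOC102176710 had 56.14 and 54.75 in September, 0.91 and 1.66 in May and 0.80 and 2.20 in March.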

How the results depend on the processing

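With 2 libraries a month, the spread comes from all 6 months, and most calls were lost without either library of May or without the March female. Fitted on the 2 months compared alone, 7 genes were higher and 4 lower in May, 5 higher and 2 lower in September than March, 8 higher and 7 lower in September than May, and 2 rises and 2 falls persisted; 223 of 232 called named genes lost the call. With 1 library left out at a time, higher genes in May ranged from 179 to 3038 and lower ones from 85 to 2918, September rises against March from 11 to 2725 and falls from 2 to 2591, persisting rises from 7 to 2280 and falls from 2 to 2091, and September against May from 3 to 14 higher and from 8 to 19 lower. Most of the 232 called named genes lost the call without the May female, the May male or the March female. Few lost it without the March male, but either March fit also leaves the March pair out of the shared spread. A minority kept it with any 1 library left out.

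Rescaling to equal sums moved September against March to 883 higher and 3470 lower, and persisting rises and falls to 741 and 1599; in May it gave 1952 and 2076. September against May gave 7 lower genes with a pseudocount of 0.1 and 4 with a mean of at least 5. February and March together as reference gave 3826 lower genes and 3354 higher. In the replicate block, which takes the replicate number (sex) as a term, 2216 genes were higher and 2192 lower in May, 1481 and 1365 in September against March, and 7 and 14 in September against May. Same-numbered libraries of 2 months correlated in their deviations by -0.255 to 0.442 over 15 pairs of months (over 0.1 in 9); they share sex, no source says that they share an animal or a batch, and the reported fit has no block. The cause of these shifts was not tested, and the unknown read depth limits low genes.

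None of the 13 genes that changed sign was called in May against March. With 1 library left out, the log2 change ranged from -0.2248 to 0.1139 in ARNTL, -0.3066 to 0.2703 in FGF10, -0.0201 to 0.7941 in FGF18, -0.1966 to 1.695 in FGF5, -0.401 to 0.4577 in FOXN1, -0.526 to 0.5417 in HOXC13, -0.1711 to 0.9408 in KRT10, -0.6667 to 0.06408 in LHX2, -0.1613 to 0.2482 in LOC102168680, -0.5056 to 0.3245 in LOC102176710, -0.2726 to 0.1084 in VDR and -0.3107 to 0.006527 in WNT5A. Quantile normalization gave 0.1115 in FGF10, -0.03838 in HOXC13, 0.03826 in LOC102176710 and 0.06463 in NOG. Rescaling gave -0.008644 in FOXN1 and -0.02954 in HOXC13, and the February and March reference -0.2778 in FOXN1, -0.1125 in HOXC13, -0.2212 in LOC102168680 and 0.09014 in LOC102176710.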
